A study of Arabidopsis thaliana with 9 samples.

Results

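BETA-VPE (locus AT1G62710) is 1 of the 13356 Arabidopsis thaliana genes to which the annotation gave a probe set of their own. It was selected on its measured signals on these arrays, which were high after cold and low at 22 °C. It belongs to the 4 vacuolar processing enzyme genes of this plant, all 4 of which were measured. Vacuolar processing enzymes, also called legumains, are cysteine proteases of the vacuole that cut proteins after asparagine or aspartate and turn the precursors of other vacuolar proteins into their mature forms. BETA-VPE is best known as the enzyme that matures storage proteins in seeds, GAMMA-VPE and ALPHA-VPE are known from leaves and other vegetative tissue, where GAMMA-VPE takes part in cell death, and DELTA-VPE is known from the seed coat. The enzymes are themselves made as inactive precursors, so a transcript level says nothing about protease activity.

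Total RNA of whole wild-type seedlings, roots included, was measured on Affymetrix arrays in 3 groups. These were WS after 24 h at 4 °C (2 arrays; the labels write the line both as WS and as WS2), Col-0 after 24 h at 4 °C (5 arrays, of which 2 carry the name set 4) and Col-0 moved for the same time to a fresh chamber at 22 °C (2 arrays, the mock treatment). The titles of these 22 °C arrays read 0h4c, while their treatment label and the design text give the mock move, which was followed here; if they were taken before the move, the cold differences would also span that day. All seedlings were 10 days old when moved, and had grown on medium without sucrose under continuous light of 60 to 80 microE at 22 °C. The labels do not say how many seedlings an array stands for, or if replicates grew apart, so every p-value speaks of the scatter among these arrays, which may be technical. WS at 22 °C was not analysed here.

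Values are log2 signals made by the authors with RMA, 1 per probe set and array, and their number limits the precision. Array medians lay between 5.81 and 6.06 and arrays of a group correlated at 0.979 to 0.993 across probe sets. Markers of root and shoot were bright in part: the root beta-glucosidase gene PYK10 lay between 11.20 and 12.21 on the 9 arrays, and the antenna protein gene LHCB4.1 between 12.30 and 12.99. The other measured root gene, EXPA7, lay far lower, between 4.69 and 6.35. The other measured leaf genes were less even, LHCB4.2 between 9.34 and 12.93 and CHLM between 9.08 and 11.10. Both were highest on the 22 °C arrays. Of 10 seed genes listed, only the vicilin-like PAP85 had a probe set of its own, and its 3.07 to 3.53 lay below 3.90, the level under which the dimmest 25% of probe sets fell. In bulk samples, fewer cells of a type and less RNA per cell cannot be told apart.

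BETA-VPE was high on every cold array and low on both arrays at 22 °C. Its log2 signals were 9.81 and 8.78 in WS at 4 °C. In Col-0 at 4 °C they were 9.76, 9.76 and 9.94 on the arrays without a set name, and 9.66 and 9.65 on the set 4 arrays. In Col-0 at 22 °C they were 4.78 and 5.41. The cold and 22 °C arrays did not overlap, and the lowest cold array stood 3.37 log2 units above the highest at 22 °C, a 10.3-fold gap. Of all 22746 probe sets tested, 505 (2.22%) had every cold array above both 22 °C arrays by at least 1 log2 unit.

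**Figure D1:**
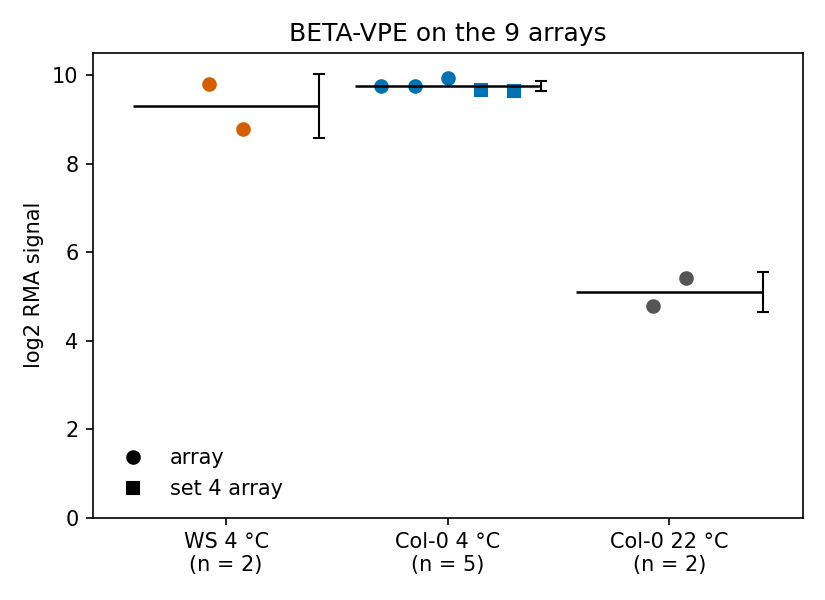
Log2 RMA signal of BETA-VPE (y axis) on each of the 9 arrays by group; points are arrays, squares are set 4 arrays, and lines with bars are group means with the SD. The cold arrays lie between 8.78 and 9.94, and the 22 °C arrays at 4.78 and 5.41.

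The group means were 9.29 ± 0.73 in WS at 4 °C (SD, n = 2), 9.75 ± 0.11 in Col-0 at 4 °C (n = 5) and 5.10 ± 0.44 in Col-0 at 22 °C (n = 2). Cold Col-0 thus stood 4.66 log2 units (25.2-fold) above Col-0 at 22 °C, the sixth place among single genes in that comparison. Cold WS stood 18.3-fold above Col-0 at 22 °C. Both are descriptions with no test, because the gene was chosen for this pattern, and both use the same 22 °C arrays. Without replicate 1 or 2 at 22 °C the difference within Col-0 was 20.3-fold and 31.4-fold. The 22 °C signals lay between the lower quartile and the median of their arrays, so they were not among the dimmest 25%. ALPHA-VPE, described below as dim, had 4.66 and 4.63 on these arrays, and signal over background was not assessed.

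In the order of the groups, Col-0 at 4 °C was above WS at 4 °C and both were above Col-0 at 22 °C, and the arrays of the 2 cold groups overlapped. The difference of WS from Col-0 in the cold was -0.46 on the log2 scale (SE 0.26, 95% interval -1.04 to 0.12), an interval of 0.486 to 1.09 times the Col-0 signal. It too is a description with no test, since the gene was selected over all 3 groups. That value rested on 1 array. Without replicate 2 of WS, the array at 8.78, it was 0.05, and without replicate 1 it was -0.97. The WS arrays differed by 1.03 log2 units for BETA-VPE in size, which 1.61% of all probe sets matched or passed between these arrays.

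Within cold Col-0 the gene varied little: the 5 arrays spanned 0.28 log2 units, and 75.2% of probe sets spanned at least as much. The set 4 arrays were 0.16 lower on the log2 scale than the other cold Col-0 arrays (log2 -0.16, SE 0.29), with a 95% interval of -0.81 to 0.49. This difference too is a description with no test, since these arrays entered the selection of the gene. The 22 °C arrays were farther apart, with replicate 2 higher by 0.63, and 9.89% of probe sets differed at least as much there. The cold-induced genes COR15A and LTI30, which encode a chloroplast stromal protein and a dehydrin, were also higher in that array, COR15A at 8.32 against 6.42 in replicate 1 and LTI30 at 10.00 against 7.83, and the part of this in the BETA-VPE signal was not tested.

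None of the other 3 vacuolar processing enzyme genes was called between cold Col-0 and Col-0 at 22 °C, where a call needed a limma adjusted p under 0.05 and an absolute log2 difference of at least 1. By that rule 12.0% of all probe sets were called, 5.87% higher and 6.09% lower. At an unadjusted p under 0.05 the count was 1 of 3, beside 37.2% of all probe sets, and the default and the trend variance model of limma both called none. That 1 gene was GAMMA-VPE, which had signals of 11.00 and 10.63 in WS at 4 °C. In Col-0 at 4 °C it had 10.63, 10.59, 10.81, 11.07 and 10.59, and in Col-0 at 22 °C it had 11.23 and 11.52. Every cold array was below both 22 °C arrays. The difference within Col-0 was -0.64 on the log2 scale (SE 0.17, limma adjusted p = 0.0202), short of the fold minimum, and without replicate 2 at 22 °C it was -0.49 (limma adjusted p = 0.16).

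ALPHA-VPE and DELTA-VPE stayed dim and close together on all arrays. ALPHA-VPE had 4.81 and 4.45 in WS at 4 °C, 4.33 to 4.73 with a median of 4.63 in Col-0 at 4 °C, and 4.66 and 4.63 in Col-0 at 22 °C. Its difference within Col-0 was -0.06 (95% interval -0.37 to 0.26, limma adjusted p = 0.825), and the groups overlapped. DELTA-VPE had 3.55 and 3.60 in WS at 4 °C, 3.41 to 3.62 in Col-0 at 4 °C, and 3.57 and 3.45 in Col-0 at 22 °C. Its difference of 0.04 (95% interval -0.19 to 0.27, limma adjusted p = 0.818) came from signals below 3.90, where a difference near 0 need not mean an unchanged transcript. Whether BETA-VPE differed from its relatives in its response was not tested, because its own response had chosen it.

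**Figure D2:**
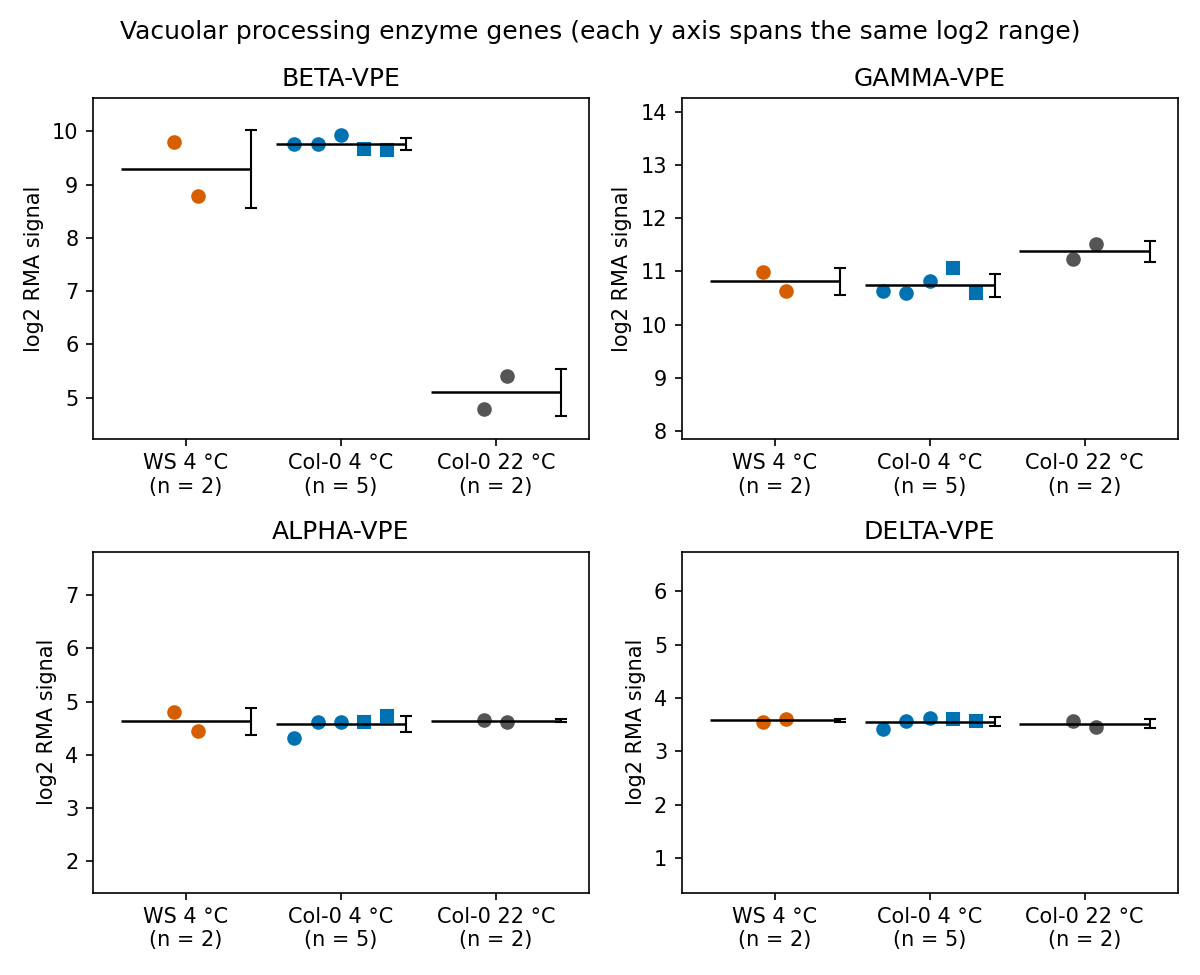
Log2 RMA signal (y axes, each of the same log2 span around its own level) of the 4 vacuolar processing enzyme genes on each array by group, with group means and SDs; squares are set 4 arrays. BETA-VPE separates cold from 22 °C arrays by over 3 log2 units, GAMMA-VPE has its highest arrays at 22 °C, and ALPHA-VPE and DELTA-VPE overlap across groups.

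In WS against Col-0 at 4 °C, where 2.14% of all probe sets were called (0.857% higher and 1.28% lower), limma called none of the 3 relatives, and none had an unadjusted p under 0.05, which 19.2% of all probe sets had. The log2 differences were 0.07 for GAMMA-VPE (95% interval -0.31 to 0.46), 0.05 for ALPHA-VPE and 0.02 for DELTA-VPE. The background count itself depended on 1 array: 486 probe sets were called with all arrays and 285 without replicate 2 of WS. AT1G08750, listed as the remaining protease of the same C13 family and counterpart of the GPI anchor transamidase of yeast and animals, had a log2 difference of 0.32 within Col-0 (limma adjusted p = 0.148) and -0.09 between the accessions (limma adjusted p = 0.824).

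Other proteases of the vacuole were compared between the same groups. Among papain-like cysteine proteases, some of which enter the vacuole as precursors, 8 of 21 listed genes were measured. Limma called 2 lower with cold in Col-0 and none higher, beside 6.09% and 5.87% of all probe sets. At an unadjusted p under 0.05 the count was 4 of 8, beside 37.2% of all probe sets. The list's median log2 difference was -0.28, beside 0.03 over all probe sets. AT4G01610 had 9.60 and 9.32 in WS at 4 °C, 8.55 to 9.55 with a median of 8.79 in Col-0 at 4 °C, and 9.74 and 10.76 in Col-0 at 22 °C. It fell by 1.29 on the log2 scale (SE 0.33, limma adjusted p = 0.0168), but the call ended without replicate 2 at 22 °C, with a log2 difference of -0.78 and a limma adjusted p of 0.184, and with the replicate number as a block (limma adjusted p = 0.0525). AT3G45310 had 7.76 and 7.75 in WS at 4 °C, 6.91 to 7.56 in Col-0 at 4 °C, and 8.07 and 8.61 in Col-0 at 22 °C. It fell by 1.08 (SE 0.21, limma adjusted p = 0.00385), and its size went under the fold minimum when replicate 2 at 22 °C was left out (log2 -0.81), and likewise for cold Col-0 replicate 2 (log2 -0.99).

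The aspartic proteases and carboxypeptidase Y, which also work in the vacuole, gave no call in the cold for any of 4 measured genes. By limma none had an unadjusted p under 0.05 either, beside 37.2% of all probe sets, and the median log2 difference was 0.01. APA1, an aspartic protease gene, had a difference of -0.05 and SCPL49, listed as carboxypeptidase Y, one of 0.08. Between the accessions, limma called 0 of the 12 measured genes of these protease lists, while 5 of 12 had an unadjusted p under 0.05, beside 19.2% of all probe sets. Each of the 5 was higher in WS. The median log2 difference was 0.30 for the papain-like list and 0.21 for the aspartic and carboxypeptidase list, beside 0.01 over all probe sets. The nearest to a call was AT1G62290 of the aspartic protease list. It had 6.62 and 6.92 in WS at 4 °C against 5.64 to 6.08 in Col-0 at 4 °C, so the groups did not overlap. Its log2 difference was 0.96 (SE 0.14, limma adjusted p = 0.00584), just under the fold minimum, and it was called when WS replicate 1 (log2 1.11) or cold Col-0 replicate 3 (log2 1.03) was left out.

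Among 6 measured protease inhibitor genes, limma called 1 higher and 1 lower in the cold (median log2 0.05), beside 5.87% and 6.09% of all probe sets. At an unadjusted p under 0.05 the count was 3 of 6, beside 37.2% of all probe sets. SERPIN1, a serpin that binds papain-like proteases, had 11.58 and 11.16 in WS at 4 °C, 11.08 to 11.34 in Col-0 at 4 °C, and 8.82 and 8.91 in Col-0 at 22 °C. Its groups at 4 °C and 22 °C were far apart, and it rose 5.11-fold in Col-0 (log2 2.35, SE 0.13, limma adjusted p = 6.07e-06). AT5G05110 of the same list had 7.47 and 7.33 in WS at 4 °C, 6.21 to 6.92 in Col-0 at 4 °C, and 7.34 and 7.89 in Col-0 at 22 °C. It fell by 1.08 on the log2 scale (SE 0.20, limma adjusted p = 0.00332) and missed the fold minimum when either replicate 2 at 22 °C (log2 -0.80) or cold Col-0 replicate 2 (log2 -0.99) was left out. Between the accessions no inhibitor was called by limma, and 3 of 6 had an unadjusted p under 0.05, beside the same 19.2%. The list's median log2 difference there was 0.47, beside 0.01 over all probe sets, and each of the 3 genes was higher in WS. AT5G05110 among them was 0.86 higher in WS (limma adjusted p = 0.0443), which is under the fold minimum.

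**Figure D3:**
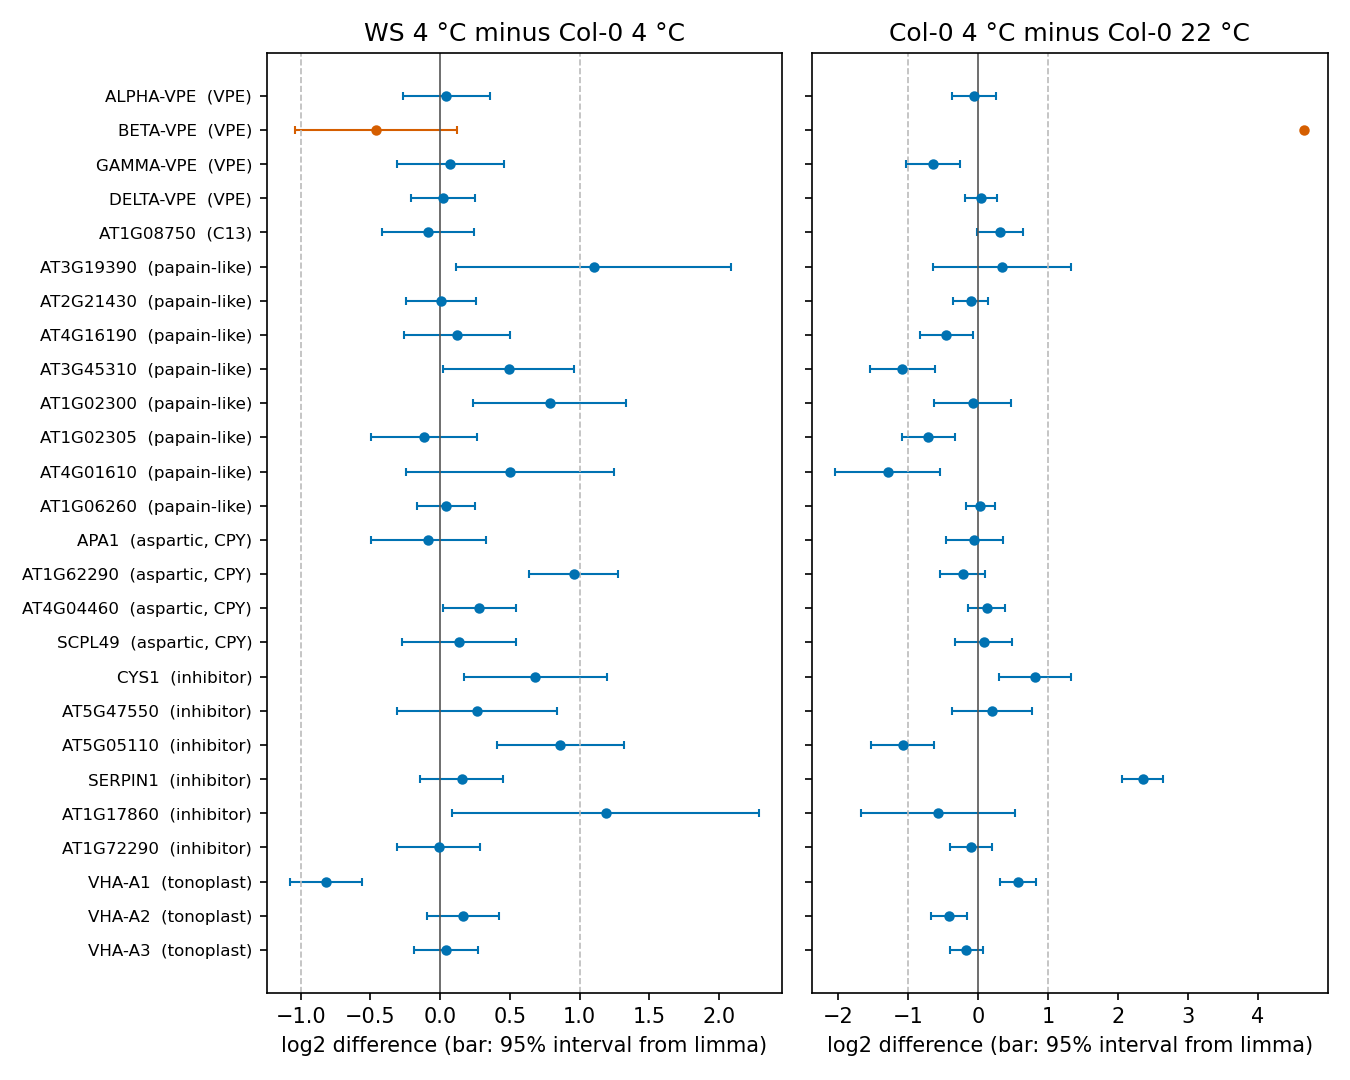
Log2 differences (x axes) of the measured vacuolar processing enzymes, other proteases, protease inhibitors and genes of the tonoplast list between the accessions in the cold (left, WS minus Col-0) and between temperatures (right, cold Col-0 minus Col-0 at 22 °C); bars are 95% intervals from limma, dashed lines mark the fold minimum, and BETA-VPE at right has no bar because it was selected on that difference. On the right BETA-VPE (4.66) and SERPIN1 (2.35) stand apart on the higher side. The BETA-VPE bar at left is a description with no test.

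For the compartment itself few listed genes were measured. Of 22 genes listed for tonoplast pumps and aquaporins, 3 were measured, all for subunits of the vacuolar-type proton pump. Where in the cell each subunit lies was not assessed, so a change in VHA-A1 need not be one of the tonoplast. Limma called none in the cold, with 2 of 3 at an unadjusted p under 0.05, beside 37.2% of all probe sets. The log2 differences within Col-0 were 0.57 for VHA-A1, -0.41 for VHA-A2 and -0.17 for VHA-A3. VHA-A1, a subunit gene of that pump, had 6.72 and 6.70 in WS at 4 °C, 7.49 to 7.60 in Col-0 at 4 °C, and 6.77 and 7.13 in Col-0 at 22 °C. The WS arrays lay below all cold Col-0 arrays (log2 -0.82, SE 0.11, limma adjusted p = 0.00462), though short of the fold minimum. The lone measured sorting gene MAG2 had a log2 difference of 0.18 with cold (limma adjusted p = 0.435), and AT1G62660, the lone measured gene of the vacuolar invertase list, had -0.74 (limma adjusted p = 0.0978). The seed marker PAP85 had 3.24 and 3.24 in WS at 4 °C, 3.07 to 3.53 in Col-0 at 4 °C, and 3.24 and 3.11 in Col-0 at 22 °C (log2 0.11, limma adjusted p = 0.624). No metacaspase was measured, which here means that the annotation gave none of them a probe set of its own. That annotation gave no gene to 8730 of the 22746 probe sets, so unmeasured list genes may still have probes on the arrays.

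Of the listed markers of senescence, leaf and root, 1 senescence gene and 2 leaf genes were called in the cold. These were 1 of 1 measured for senescence and 2 of 3 for leaf, beside 12.0% of all probe sets called. Both counts are descriptions, since the lists were chosen with earlier results of these data known. The part of the called genes in the BETA-VPE level was not tested. The senescence-linked sugar transporter gene SAG29, 1 of 6 listed senescence genes with a probe set of its own, had 7.13 and 7.02 in WS at 4 °C. In Col-0 at 4 °C it had 5.99, 6.72, 8.07, 6.07 and 8.43, and in Col-0 at 22 °C it had 3.86 and 4.96. It rose 6.27-fold (log2 2.65, SE 0.67, limma adjusted p = 0.0149), and without replicate 1 at 22 °C it was 4.29-fold higher but no longer called (limma adjusted p = 0.152). It was uneven across the cold Col-0 arrays on which BETA-VPE was even. Of 3 measured leaf genes, LHCB4.2 of the antenna and CHLM of chlorophyll synthesis fell (log2 -1.86 and -1.62, limma adjusted p = 0.00123 and 0.000127). Neither of the 2 measured root genes was called by limma, nor had either an unadjusted p under 0.05, which 37.2% of all probe sets had. PYK10 and EXPA7 had log2 differences of -0.37 and 0.17. All 6 measured of 7 listed cold-regulated genes were called higher, as were 5.87% of all probe sets. They were listed for their response to cold, with earlier results of these data known, so that count is a description and no test.

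The gene neighbours of BETA-VPE were compared as well. Of the 5 annotated genes on each side in chromosome order, 4 were measured. Both on 1 side were called higher with cold in Col-0, as were 5.87% of all probe sets. AT1G62730, the third gene to that side, had 6.92 and 6.96 in WS at 4 °C, 6.40 to 6.72 in Col-0 at 4 °C, and 5.21 and 5.29 in Col-0 at 22 °C (log2 1.31, SE 0.12, limma adjusted p = 6.07e-05). Hop2, the fourth, encodes a co-chaperone that links Hsp70 and Hsp90, and it had 9.67 and 9.65 in WS at 4 °C, 9.03 to 9.73 in Col-0 at 4 °C, and 8.21 and 7.93 in Col-0 at 22 °C (log2 1.38, SE 0.18, limma adjusted p = 0.000491). On the other side AT1G62680 and AT1G62690 had log2 differences of 0.15 and 0.08 at signals of 3.10 to 4.18 (limma adjusted p = 0.409 and 0.664). Between the accessions limma called none of the 4 neighbours, with limma adjusted p of 0.112 to 0.619.

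**Figure D4:**
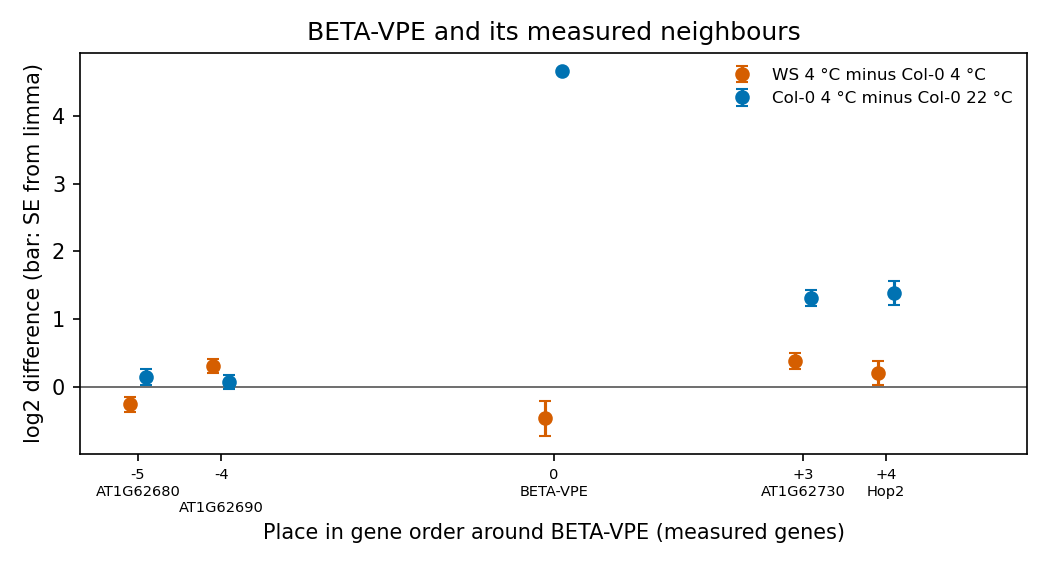
Log2 difference (y axis, bars are SEs from limma; none for BETA-VPE in the cold contrast, which was not tested) of BETA-VPE and its measured neighbours by place in gene order (x axis), between the accessions in the cold (WS minus Col-0) and between temperatures (cold Col-0 minus Col-0 at 22 °C). BETA-VPE lies at 4.66 in the cold contrast and the neighbours at 0.08 to 1.38. The BETA-VPE difference between the accessions is also a description with no test.

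The genes whose profile over the 9 arrays was most like that of BETA-VPE were AT1G33230, AT4G28450, AT1G80130, AT1G67360, AT1G16850, AT3G09540, AT1G21790, AT1G64890, AT5G42570 and AT1G67850, with Pearson correlations of 0.991 to 0.997. These correlations are descriptions with no test, since all genes share the arrays and the step from 22 °C to 4 °C, and 673 of the 13355 other genes reached 0.9. All 10 were higher in cold Col-0 than in Col-0 at 22 °C, by 1.84 to 6.15 on the log2 scale, and all 10 were lower in replicate 2 than in replicate 1 of WS, by 0.17 to 0.79 in size. Which genes made the list depended on that array: without replicate 2 of WS, 3 of the 10 remained. Over the 7 cold arrays alone their correlations with BETA-VPE were 0.672 to 0.928.

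AT1G80130 was alike in size too. It had 11.36 and 10.57 in WS at 4 °C, 11.07 to 11.57 in Col-0 at 4 °C, and 6.39 and 6.87 in Col-0 at 22 °C, and its profile differed from that of BETA-VPE by a root mean square of 0.19 log2 units once each was centred on its own mean, the least of all genes. It was the only gene among the 10 nearest by both measures. The 3 genes with the most opposite profiles were MCCA, which encodes a subunit of an enzyme of leucine breakdown, the expansin gene EXPA8 and AT4G09830, with correlations of -0.993, -0.993 and -0.991. EXPA8 had 4.56 and 4.98 in WS at 4 °C, 4.44 to 4.83 in Col-0 at 4 °C, and 9.88 and 9.42 in Col-0 at 22 °C.

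**Figure D5:**
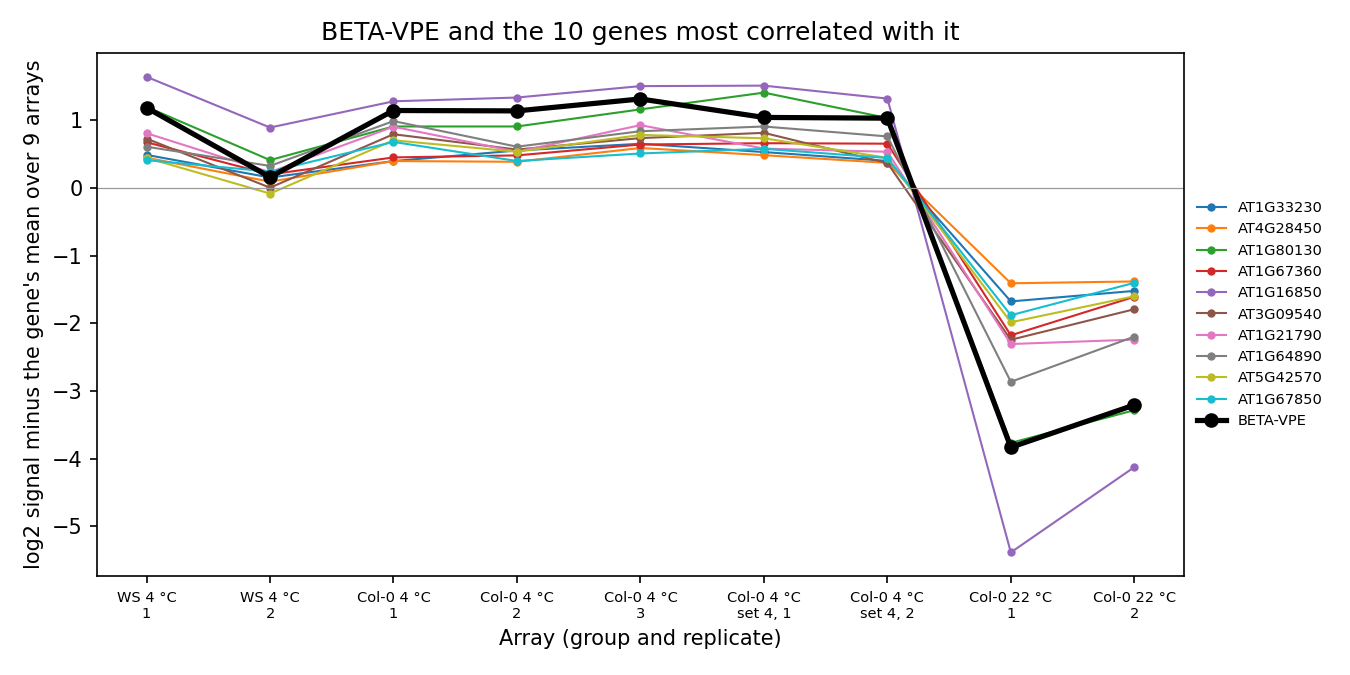
Log2 signal minus the gene's own mean over the 9 arrays (y axis) for BETA-VPE (thick black line) and the 10 genes most correlated with it (thin lines), by array (x axis). All lines lie low on the 22 °C arrays, and all are lower in replicate 2 than in replicate 1 of WS.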

How the data were processed

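The deposited table holds log2 signals; the submitters' processing notes name RMA and affy, and no version is given in the sources used here. Of 22810 probe sets, 64 controls were left out. The platform annotation, updated through the RefSeq gene table (TAIR10.1), gave 1 gene to 13513 probe sets, several to 503 and none to 8730. The probe set with the highest mean stood for a gene. No sequence was used here, and gene coordinates served only to put the neighbours in chromosome order.

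In R 4.3.3, limma 3.58.1 was run on all 22746 probe sets at once, with a mean per group and 6 residual degrees of freedom, through lmFit and eBayes, with Benjamini-Hochberg adjustment over all. The set 4 contrast used 4 group means. Planned tests of BETA-VPE between WS and Col-0 at 4 °C, and between set 4 and the other cold Col-0 arrays, are given as descriptions only. The arrays in both entered the selection of the gene. The pipeline was tested on simulated data. Arrays were grouped by their titles. The gene, lists and tests were chosen with earlier results of these data known. Named genes were the vacuolar processing enzymes, AT1G08750, called members of each list or else the member with the largest difference, measured neighbours, and the 10 most and 3 least correlated genes. Some further list members (APA1, SCPL49, LHCB4.1, EXPA7, VHA-A2, VHA-A3) were named after their values were seen. Alternatives left out each array or set 4, or changed the variance model, the scaling, the dim filter, the block or the groups fitted.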

Additional observations from a re-analysis of the deposited data

Results flagged for a closer look

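In 3 of the 28 named genes tested this way, 1 of the 5 cold Col-0 arrays stood far from the others, by a gap to its nearest neighbour of over 0.71 of the group's range, which chance gives in about 1 of 20 groups. For ALPHA-VPE, replicate 1 was the low array at 4.33, with the rest at 4.63 to 4.73, and the gap was 0.746 of the range. For DELTA-VPE, replicate 1 was again low, at 3.41 (0.731 of the range). For the neighbour AT1G62690, replicate 3 was high at 3.38, with the rest at 3.15 to 3.19 (0.823). The signals of DELTA-VPE and AT1G62690 are among the dimmest 25% of probe sets. BETA-VPE had no such array in cold Col-0, and its groups of 2 arrays, WS at 4 °C among them, were too small for this test.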

How the results depend on the processing

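BETA-VPE in cold Col-0 against Col-0 at 22 °C ranged from 4.34 to 4.97 on the log2 scale over all alternatives. Leaving out single arrays gave 3.68 to 4.71 for BETA-VPE in cold WS against Col-0 at 22 °C, and -0.97 to 0.051 for WS against Col-0 at 4 °C. In the same way, the uncalled relatives changed sign: ALPHA-VPE (-0.092 to 0.0088 in the cold, -0.13 to 0.22 in WS against Col-0), DELTA-VPE (-0.018 to 0.10 and -0.014 to 0.046), GAMMA-VPE in WS against Col-0 (-0.11 to 0.26) and AT1G08750 there (-0.24 to 0.067). Probe sets called in WS against Col-0 numbered 285 to 549 without single arrays, and list genes called there 0 to 1. Of the 10 genes most like BETA-VPE, 3 to 9 remained without single arrays, 1 by root mean square difference, 0 over the cold arrays alone and 0 over the 3 group means, a measure that 3 points barely define. The cause of these changes was not tested. With the replicate block, BETA-VPE had -0.42 in WS against Col-0, 1 list gene was called there (AT1G62290, log2 1.03), and AT4G01610 lost its cold call. The block changed no other call among the named-gene results recomputed. Only cold Col-0 had a replicate 3, so the block gave the log2 differences of leaving that array out and is no separate check of them. The replicate numbers share no origin in the labels, and same-numbered arrays did not deviate together (correlations -0.32 to 0.24), so they were not taken as pairs. Signal over background was not assessed.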
